A study of Homo sapiens with 16 samples.

Results

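Across 8 peak lists, 1106 of 36802 genomic regions (3.01%) had a peak in all 4 lists named for sodium arsenite (AS) and in none of the 4 lists named for untreated cells, and these 1106 regions are described here. Peaks that overlapped by at least 1 bp on the same strand were first joined into regions, and the members were then chosen by the presence of a peak alone. The data come from RNA immunoprecipitation followed by sequencing (RIP-seq) with an anti-Myc antibody in H1299, a long-established cell line from a human lung carcinoma. Stable lines carried PABPC1 with a Myc tag, as wild type (WT) or as K512R, which has arginine in place of a lysine, and received 500 µM sodium arsenite or no treatment. Each peak marks a place where the authors' program called reads enriched.

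The names of the lists and the sample record give different conditions for 6 of the 8 lists, and this touches every result. The 4 arsenite-named lists are called K512R-AS-1, K512R-AS-2, WT-AS-1 and WT-AS-2. By the record, the K512R-AS lists belong to the input RNA of WT cells given AS, and the WT-AS lists to the input RNA of untreated WT cells. Of the untreated-named lists, K512R-1 and K512R-2 are recorded as the immunoprecipitate (IP) of WT cells given AS, and WT-1 and WT-2 as the IP of untreated WT cells, which for this last pair is also what the name allows. By the names the 1106 regions are thus found with AS and not without it, and by the record they are found in input and not in IP, in cells that all express wild-type Myc-PABPC1. Which reading is right was not settled, and the 2 readings cannot be told apart from the lists. The 4 pairs of lists are the same under both. The labels do not say whether the cells' own PABPC1 was removed or whether replicates came from separate cultures. The 8 samples titled K512R were not analysed here.

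PABPC1 is the main cytoplasmic poly(A)-binding protein. It coats the poly(A) tails of mRNAs, supports translation initiation through eIF4G, and slows decay. Arsenite is an oxidative stressor that blocks translation initiation, and mRNAs released from ribosomes then gather with PABPC1 and other RNA-binding proteins in stress granules. SUMO, a small protein modifier, is attached to lysines and not to arginines, and by its title the study concerns SUMO on PABPC1. All positions are in hg19, counted from 1, and regions are given by position because no gene annotation of that build was used here.

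The lists held 19953 to 25111 peaks, 175749 in all. The depth behind them is unknown, as a list holds peaks without read counts. The 1106 regions were 7.68% of the 14393 regions that had a peak in all 4 arsenite-named lists. The reverse set, found in all 4 untreated-named lists and in no arsenite-named one, held 1875 regions (5.09% of all), which was 11.4% of the 16479 regions in all 4 untreated-named lists. With all lists cut down by score to the length of the shortest, the order turned, with 1459 regions in the arsenite-named set and 1401 in the reverse set. No test was made of these counts, because presence in these same lists chose the regions.

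**Figure D1:**
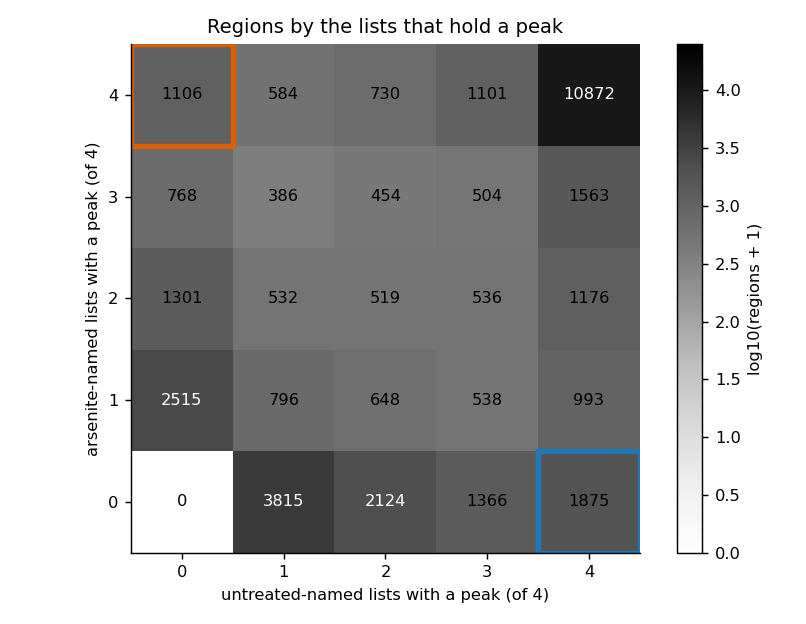
Number of regions by how many of the 4 arsenite-named lists (vertical axis) and of the 4 untreated-named lists (horizontal axis) held a peak, with darker cells for more regions on a log scale. The orange frame marks the 1106 regions found in all 4 arsenite-named and no untreated-named list, the blue frame the 1875 of the reverse set, and 10872 regions lay in all 8 lists.

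Just outside the rule lay 768 regions with a peak in 3 of the 4 arsenite-named lists and in no untreated-named list, and 584 with a peak in all 4 and in 1 untreated-named list. Each peak carries a score from the authors' caller, of unstated unit, which is given here as a percentile among all peaks of the same list, so that 100 is the best. The median over regions of the mean percentile in the arsenite-named lists was 43.0 for the 1106 members, 24.3 for the 768 regions with 3 peaks, and 40.7 for the 584 regions with 1 further peak. In those 584 the extra peak in the untreated-named list stood at a median percentile of 13.9. The list missing among the 768 was K512R-AS-1 in 253, K512R-AS-2 in 178, WT-AS-1 in 179 and WT-AS-2 in 158. The extra list among the 584 was K512R-1 in 156, K512R-2 in 215, WT-1 in 105 and WT-2 in 108. The extra peak thus lay most often in K512R-2, the longest list.

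The members were mostly short, weak to middling peaks. Their median width was 154.5 bp, with 10% at 79 bp or less and 10% at 790 bp or more, against 197 bp for the other 13287 regions in all 4 arsenite-named lists and 200 bp for the reverse set. Regions over 1000 bp made up 6.69% of the members (74 regions), 7.62% of the other regions in all 4 lists and 17.1% of the reverse set. All 1106 had 1 peak in each of the 4 lists, and in 943 (85.3%) the 4 lists gave the peak the same start and end, against 81.2% of the other regions in all 4 lists. By its own lists the share was 80.4% in the reverse set, and it was 79.1% in regions of all 8 lists. Lists with the same ends may not measure width separately, and how the ends were set was not examined. Of the members, 590 lay on the plus strand and 516 on the minus strand. In the lists, the median score of the members was 93.0 in K512R-AS-1, 115 in K512R-AS-2, 128 in WT-AS-1 and 134 in WT-AS-2. The corresponding score of the other regions in all 4 lists was 320, 385, 327 and 326 in the same order. In every list the members' median was thus below that of the other regions. Low scores were not particular to the members. The reverse set had a median mean percentile of 39.0 in its own 4 lists, against 43.0 for the members in theirs.

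Weakly scored regions were more often members. Among regions in all 4 arsenite-named lists, members made up 17.1% of the 659 regions with a mean percentile under 20 and 13.5% of those from 20 to 40. The share was 9.49% from 40 to 60, 5.39% from 60 to 80, and 1.97% of the 3664 regions at 80 or above. Of the members, 258 (23.3%) scored above the median of the list in all 4 lists, against 54.4% of the other regions in all 4. Another 432 (39.1%) scored below it in all 4, against 20.5% of the other regions. In the reverse set, by its own 4 lists, 16.3% scored above the median in all 4 and 45.2% below it. By width, members made up 10.3% of regions of up to 100 bp, 9.28% of those from 100 to 200 bp and 5.26% of those from 200 to 500 bp. The share was 5.78% from 500 to 1000 bp and 6.81% over 1000 bp, so it did not fall further in wider regions.

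A small group of members reached the top of the scores. In 12 members (1.08%) the score was 3100 or more in all 4 lists, a value at which many of the strongest peaks are tied, against 1459 (11.0%) of the other 13287 regions in all 4 lists. They were 90 to 717 bp wide, and 10 of the 12 were alone in their locus. All 12 had a region of some untreated-named list within 50 kb on the same strand, at a median distance of 4166.5 bp and at 796 bp in the closest case. A region on chromosome 1 at 38484925 to 38485055 (plus strand, 131 bp) scored 3100 in K512R-AS-1, 3182.67 in K512R-AS-2, and 3100 in both WT-AS lists. A region of the same width on chromosome 15 at 78837976 to 78838106 (plus strand) scored 3100 in both K512R-AS lists, 3100 in WT-AS-1 and 3184.79 in WT-AS-2. These are top-ranked peaks in 4 lists with no listed peak at the same place in the other 4.

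The 8 others of the 10 best-scored members were tied at 3100 in all 4 lists and are given from the widest to the narrowest. On chromosome 13 the region spanned 31037668 to 31038384 on the minus strand, and a region of all 8 lists lay 1548 bp from it on its 5' side. On chromosome 1 it spanned 226259052 to 226259703 on the plus strand, with a region of all 8 lists 5018 bp away on the 5' side. On chromosome 17 it spanned 7215141 to 7215782 and on chromosome 18 it spanned 3255744 to 3256235, both on the plus strand. On chromosome 9 it spanned 130925722 to 130926207 on the plus strand, 2956 bp from a region of all 8 lists on the 5' side, and on chromosome 5 it spanned 170814708 to 170815010 on the plus strand. The last were chromosome 1 at 8926338 to 8926560 on the minus strand and chromosome 22 at 24309026 to 24309210 on the plus strand. Of the 12 members at this score, 4 had a region of all 8 lists within 50 kb on the 5' side alone, 4 on the 3' side alone, 2 on both sides and 2 on neither.

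Between the pairs of arsenite-named lists, members ranked lower in the K512R-AS lists than in the WT-AS lists. The rule treats these 4 lists alike, so this difference was not itself used to choose the members. The rule also asks for no peak in the untreated-named lists, and those lists did not remove regions equally. Among regions in all 4 arsenite-named lists and 1 untreated-named list, that list was K512R-1 in 156 and K512R-2 in 215. It was WT-1 in 105 and WT-2 in 108. The lower rank may thus be tied to the choice of members, which was not tested. In each list the median percentile of the members was 40.2 in K512R-AS-1 and 42.9 in K512R-AS-2, against 45.8 in WT-AS-1 and 48.6 in WT-AS-2, so both K512R-AS values lay below both WT-AS values. The percentile was lower in both K512R-AS lists than in both WT-AS lists in 413 members (37.3%) and higher in both in 174 (15.7%). Over all 14393 regions in the 4 lists the same counts were 33.9% lower and 24.4% higher. The median difference, K512R-AS minus WT-AS, was -4.03 percentile points in members and -0.48 in the other regions. Because members ranked lower than the other regions, the values were also taken over the middle of the members' own range, from percentile 29.2 to 59.5. There 36.4% of 552 members were lower in both K512R-AS lists and 16.7% higher, against 24.5% lower and 27.7% higher among 4632 other regions. A comparison of 2 lists against 2 cannot pass 0.05 in an exact test, so no p-value is given, and by the record the K512R-AS lists are WT input with AS and the WT-AS lists WT input without it.

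**Figure D2:**
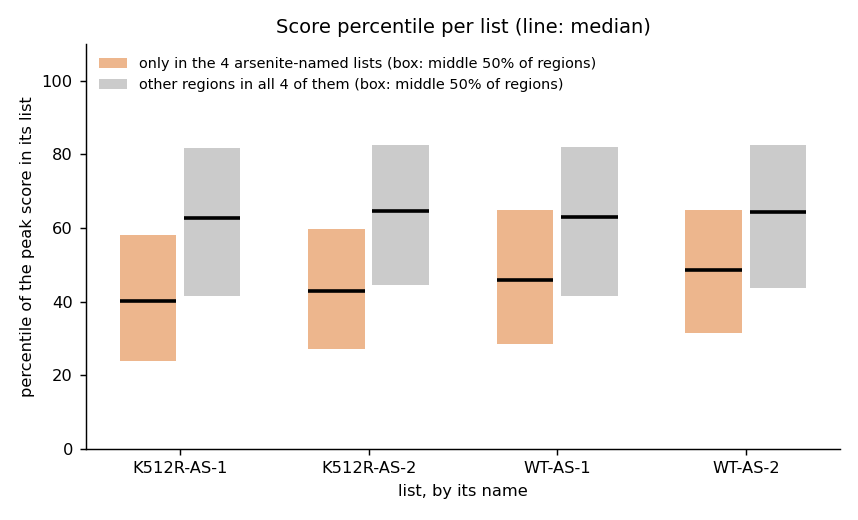
Percentile of the peak score within each arsenite-named list (boxes span the middle 50% of regions, lines the median) for the 1106 members in orange and the other 13287 regions in all 4 lists in grey. The members' medians were 40.2 and 42.9 in the K512R-AS lists and 45.8 and 48.6 in the WT-AS lists, all below the grey medians of 62.6 to 64.7.

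Single members differed far more between the pairs than the median. The member that ranked lowest in the K512R-AS lists relative to WT-AS lay on chromosome 1 at 165712404 to 165712548 (minus strand, 145 bp). It scored 29.91 and 18.68 in the K512R-AS lists, against 653.05 and 531.76 in the WT-AS lists, a difference of -60.4 percentile points. It was followed by chromosome 6 at 111306209 to 111306341 (plus strand), with scores of 15.34 and 13.44 in K512R-AS and 249.45 and 352.72 in WT-AS. Next came chromosome 3 at 172482068 to 172482290 (plus strand), with 72.33 and 22.94 in K512R-AS and 1295.37 and 757.72 in WT-AS. In all 3 the lists of the pairs did not overlap, although a region with a score near 13 is close to the lowest score that any list holds.

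In the other direction the differences were smaller. A member on chromosome 4 at 24585946 to 24586184 (minus strand, 239 bp) scored 108.16 and 514.01 in the K512R-AS lists and 26.21 and 21.84 in the WT-AS lists, a difference of 43.5 percentile points. It lay 575693 bp from the nearest region of any untreated-named list on its strand. A member on chromosome 8 at 30915888 to 30916059 (plus strand) scored 129.72 and 185.13 in K512R-AS and 14.64 and 30.65 in WT-AS. A member on chromosome 4 at 120980579 to 120981445 (minus strand) scored 573.1 and 349.82 in K512R-AS and 41.79 and 62.88 in WT-AS. These 6 members were named for the size of their difference, which is therefore a description.

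The members were spread unevenly over the chromosomes. Members made up 15.9% of the regions in all 4 arsenite-named lists on chromosome 13 (51 of 321, 95% Wilson interval 12.3% to 20.3%) and 1.88% on chromosome 19 (18 of 958, 1.19% to 2.95%), around 7.68% over the whole genome. Chromosome 2 had 11.5% (123 of 1074), chromosome 4 had 10.4% and chromosome X 9.94%, while chromosome 16 had 3.04% (16 of 526). Over the alternatives the share on chromosome 19 ran from 1.87% to 5.06%, and it was 2.92% without K512R-2, 4.11% without replicate 1 and 5.06% without replicate 2. The intervals cover counting error only, and neighbouring regions are not independent. Chromosome 2 alone held 11.1% of all members and 7.28% of all regions, and chromosome 19 held 1.63% of the members and 6.43% of all regions. Chromosome 19 is the most gene-dense human chromosome and chromosomes 13 and 18 are among the least, as textbook background. Chromosome 18 had 5.79% (15 of 259), below the genome-wide share and near the 5.99% of chromosome 17 and the 5.90% of chromosome 22. Gene density was not measured here, and a relation of the shares to it was not tested.

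The reverse set did not follow the same order. Its share of the regions in all 4 untreated-named lists was 7.45% on chromosome 13 and 5.57% on chromosome X. It was 12.2% on chromosome 19, 13.7% on chromosome 16 and 15.7% on chromosome 9. Members had the smaller share on 19 of 23 chromosomes compared, and the larger one on 4, which were chromosomes 2, 5, 13 and X. Chromosomes 13 and 2, where members were most frequent, are among these 4.

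**Figure D3:**
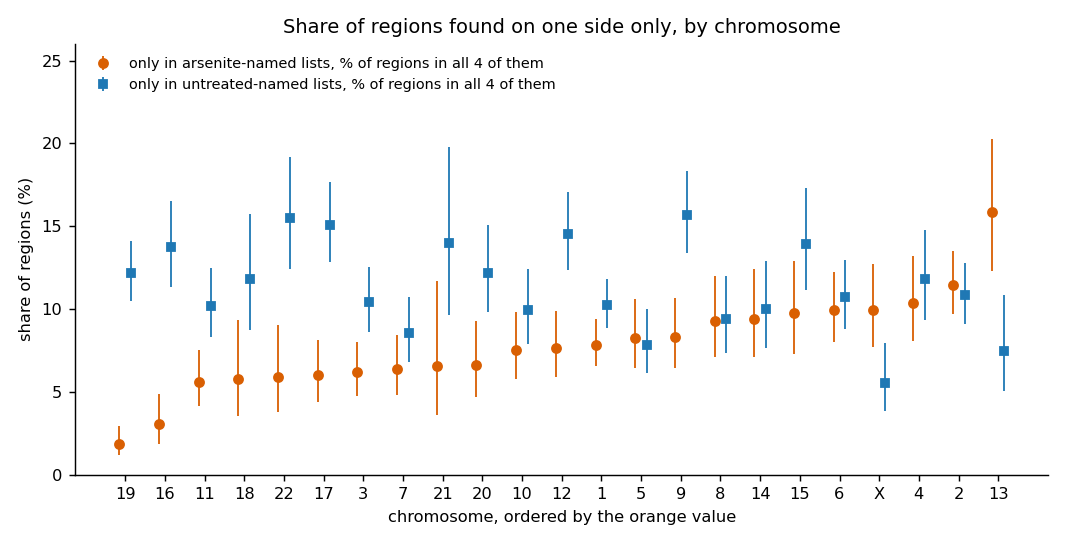
Share of regions found in the arsenite-named lists alone (orange circles, percent of regions in all 4 of them) and in the untreated-named lists alone (blue squares, percent of regions in all 4 of those), by chromosome, with 95% Wilson intervals for counting error. The orange share ran between 1.88% on chromosome 19 and 15.9% on chromosome 13.

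Both pairs of conditions, taken alone, kept chromosome 13 above and chromosome 19 below the genome-wide share. With the K512R-named lists alone, regions in both K512R-AS lists and in neither untreated K512R list made up 13.3% of the 17298 regions in both K512R-AS lists, 20.3% on chromosome 13 and 5.18% on chromosome 19. With the WT-named lists alone the values were 17.1% of 17639 regions, 24.1% on chromosome 13 and 5.85% on chromosome 19. These shares rest on the lists that chose the members and are a description. The share was higher in the WT-named than in the K512R-named lists on all 23 chromosomes compared. The untreated lists differ in length, with 24159 and 25087 pairs of neighbouring peaks in K512R-1 and K512R-2. WT-1 and WT-2 held 21955 and 22059 such pairs. A longer untreated list can lower the share on every chromosome at once, so the 23 chromosomes are not separate observations. The part of list length was not tested. Shares over all peaks of a list include the peaks of members and of the reverse set, so they are not separate support. Chromosome 13 held 2.42%, 2.35%, 2.33% and 2.24% of the peaks in K512R-AS-1, K512R-AS-2, WT-AS-1 and WT-AS-2, against 1.96%, 2.03%, 1.96% and 1.93% in K512R-1, K512R-2, WT-1 and WT-2. Chromosome 19 held 6.34% to 6.50% in the arsenite-named lists and 7.23% to 7.46% in the untreated-named lists. On both chromosomes the shares of the 4 lists of one set did not overlap with those of the other 4. This was not particular to chromosomes 13 and 19. The shares of the sets overlapped only on chromosomes 1, 11, 15, 18, 20, 21 and Y.

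Members also had fewer listed regions around them. Within the 1 Mb around a member there were a median of 22 other regions of any list and strand, with quartiles of 13 and 32. The median was 28 around the other regions in all 4 arsenite-named lists and 34 around the reverse set. The difference held within chromosomes, where the members' median was lower than that of the other regions on 20 of 23 chromosomes, equal on 3 and higher on none. With a window of 0.5 Mb the medians were 14 for members and 17 for the other regions, and with 2 Mb they were 35 and 47. The counted regions include those of the untreated-named lists, in which members were chosen to have no peak. These counts may thus be tied to that choice and are a description. Regions of all 4 arsenite-named and 1 to 3 untreated-named lists were not counted apart, so the lower count is not shown to be particular to members.

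The 1106 members fell into 769 loci, where members within 50 kb of each other on the same strand were taken as 1 locus. A locus of this kind is a stretch of genome and may hold part of a gene, a whole gene or several. Of the loci, 555 held 1 member, 138 held 2, 48 held 3, 16 held 4, 9 held 5, and 1 each held 6, 7 and 9. In all, 551 members (49.8%) shared a locus with another, against 59.8% in the reverse set, whose largest locus held 12 regions. The reverse set is larger, with 1875 regions, and had a median of 34 other regions within 1 Mb, against 22 for members. Both can raise the share at a fixed distance, and neither was allowed for. Among the 76 loci with 3 or more members, 55 held no region of any untreated-named list between their first and last member, and 31 held no other region at all. A region of all 8 lists lay inside 11 of the 76, and a region of the reverse set inside none. For 11 of the 76, no region of an untreated-named list lay within 50 kb on the strand either.

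The locus with the most members lay on the minus strand of chromosome 9 at 102743746 to 102822454 and held 9 members over 78.7 kb. Their widths ran from 40 to 1250 bp, and the widest was the one farthest to the 3' side, at 102743746 to 102744995. That region scored 405.39 and 182.51 in the K512R-AS lists and 187.62 and 168.76 in the WT-AS lists. The best-ranked member, at 102747249 to 102747351, scored 397.12 and 421.65 in K512R-AS and 569.56 and 319.72 in WT-AS, so the pairs overlapped in both members. The locus also held 1 region with peaks in 2 arsenite-named lists alone, and 1 with peaks in all 4 arsenite-named and in untreated-named lists. The nearest region of all 8 lists lay 38.6 kb away on the 5' side.

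The next largest locus lay on chromosome 9 from 36581641 to 36677680 (plus strand), with 7 members over 96.0 kb. The nearest region of any untreated-named list was 377 kb away on the 5' side and 443 kb away on the 3' side. Its members scored between 14.28 and 569.4 over the 4 lists and differed in both directions between the pairs. The member at 36594625 to 36594768 scored 381.88 and 569.4 in K512R-AS, against 39.12 and 164.71 in WT-AS. The member at 36633099 to 36633197 scored 36.41 and 20.54 in K512R-AS, against 172.84 and 237.85 in WT-AS. A long stretch of the strand thus carried peaks in arsenite-named lists alone, and its members did not move together between the pairs.

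The third locus, on chromosome 6 from 111306209 to 111337059 (plus strand), held 6 members of 40 to 133 bp over 30.9 kb and no other region. The member at 111329241 to 111329340 scored 708.45 and 604.99 in K512R-AS and 873.73 and 823.07 in WT-AS. A region of all 8 lists lay 24.5 kb away on the 5' side. Farther along chromosome 6, on the plus strand at 144171268 to 144184943, 5 members stood within 13.7 kb with no other region between them, 6.65 kb past a region of all 8 lists. On the minus strand of chromosome 10 at 5807186 to 5838825, 5 members over 31.6 kb followed 3.74 kb after a region of all 8 lists. Its 3'-most member, at 5807186 to 5808115 (930 bp), scored 3100 in both K512R-AS lists, 2843.97 in WT-AS-1 and 3100 in WT-AS-2.

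In 2 of the 12 loci with the most members, every member ranked lower in the K512R-AS pair by its mean percentile. On the minus strand of chromosome 2 at 86371055 to 86408495, 4 of 5 members were lower in both K512R-AS lists than in both WT-AS lists. The member at 86378420 to 86378643 scored 102.44 and 112.31 in K512R-AS, against 1124.3 and 939.53 in WT-AS. On chromosome 9 from 75766647 to 75785310 (plus strand), all 5 members were lower in both K512R-AS lists. The member at 75775179 to 75775341 scored 352.75 and 476.4 in K512R-AS, against 2475.58 and 1535.64 in WT-AS. Its neighbour at 75784967 to 75785310 scored 2233.62 and 2440.04 in K512R-AS and 3100 in both WT-AS lists. The median difference over members was -26.8 percentile points in the first of these loci and -20.5 in the other. No region of an untreated-named list lay within 910 kb of the chromosome 9 locus on its strand, so over that distance all listed peaks of the strand were in arsenite-named lists.

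The other loci with 5 members differed in what surrounded them. On the minus strand of chromosome X at 114243880 to 114252258, 5 members stood within 8.38 kb with no other region of any list between them, and the nearest region with an untreated-named peak lay 216 kb away. Its member at 114243880 to 114244229 scored 441.74 and 485.07 in K512R-AS and 684.96 and 656.49 in WT-AS. On chromosome 13 from 73357561 to 73402052 (plus strand), 1 region of all 8 lists lay within 50 kb, 48.4 kb away on the 5' side. On the minus strand of chromosome 1 at 156278752 to 156288808, the 5 members lay among 15 regions with an untreated-named peak within 50 kb. The loci on chromosome 2 at 9570052 to 9613239 (plus strand) and at 223478530 to 223513514 (minus strand) held 2 and 4 regions of all 8 lists between their members. Runs of members thus occurred both on otherwise empty strands and between peaks found in every list.

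**Figure D4:**
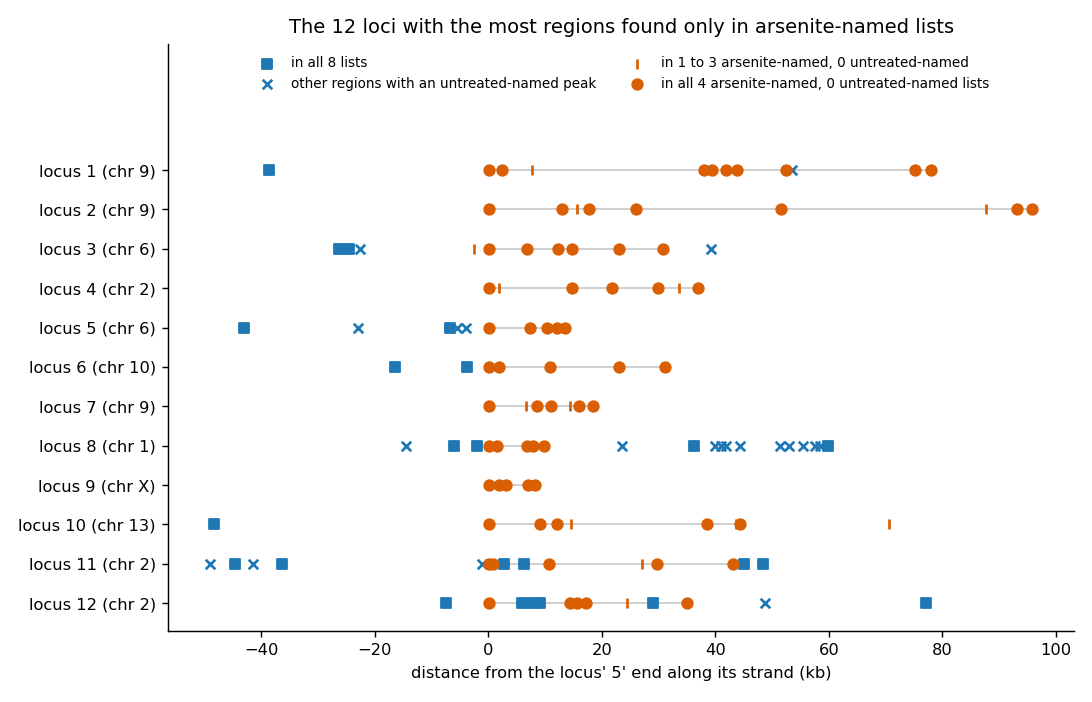
Regions along the 12 loci with the most members, by distance in kb from the 5' end of the locus on its strand. Orange circles are members, orange ticks are regions in 1 to 3 arsenite-named lists alone, blue squares are regions of all 8 lists and blue crosses are other regions with an untreated-named peak. Locus 2 (chromosome 9), locus 4 (chromosome 2), locus 7 (chromosome 9) and locus 9 (chromosome X) have no blue square in view. Each of the other loci has at least 1 blue square on its 5' side.

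On the strand assigned by the authors, members lay more often on the 3' side of a region of all 8 lists than on its 5' side. Of the 1106 members, 362 (32.7%) had a region of all 8 lists within 50 kb on their 5' side alone, 108 (9.76%) on their 3' side alone, 154 (13.9%) on both sides and 482 (43.6%) on neither. Of the 470 members with such a region on 1 side alone, 77.0% had it on the 5' side (95% Wilson interval 73.0% to 80.6%, counting error only). Neighbouring members can share such a region, so they are not independent and the interval may be too narrow. In the reverse set the share on the 5' side was 62.1% (58.3% to 65.7%, with the same limit) of 649 regions. In regions of all 4 arsenite-named and 1 to 3 untreated-named lists it was 65.2% of 1105, so a lean to the 5' side was not particular to the members. The count on the 5' side was the larger one on 22 of 23 chromosomes and equal on 1. It was 77.2% within 10 kb and 74.5% within 100 kb. Counted with regions of the opposite strand, the share was 62.9% in members and 27.4% in the reverse set. No source used here says how strand was assigned, and its part in the result was not tested.

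**Figure D5:**
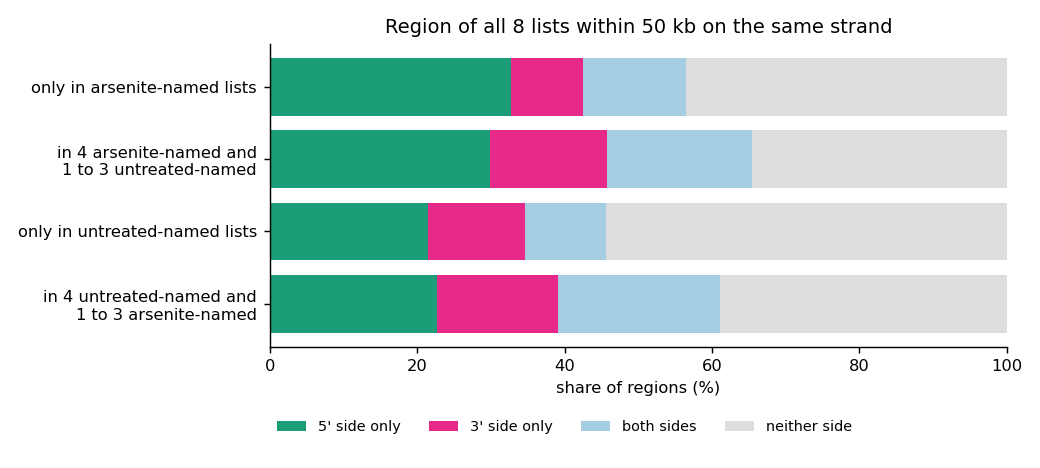
Share of regions (percent) with a region of all 8 lists within 50 kb on the same strand, on the 5' side alone, the 3' side alone, both sides or neither, for members (top bar) and 3 other sets of regions. Members had 32.7% on the 5' side alone and 9.76% on the 3' side alone, and the reverse set 21.5% and 13.1%.

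Members with a region of all 8 lists on the 5' side alone were also the better-scored ones, with a median mean percentile of 49.7. It was 40.4 with such a region on the 3' side alone, 42.3 with both and 39.4 with neither. In loci of 3 or more members, the widest member was the 3'-most one in 35 of 76 loci and the 5'-most one in 22. Among runs of regions of all 8 lists the same held in 577 and 435 of 1395, so this order of widths is shared with regions that were found everywhere.

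Of the 6 widest members, 5 were alone in their locus. The widest spanned 3985 bp on chromosome 2 at 99812036 to 99816020 (plus strand) and scored 264.53 and 176.95 in the K512R-AS lists, against 933.1 and 787.14 in the WT-AS lists. A region of 3587 bp on chromosome 14 at 90871033 to 90874619 (plus strand) scored 3100 and 2379.86 in K512R-AS and 3100 in both WT-AS lists. Both lay past a region of all 8 lists, at 7315 bp and 7455 bp on the 5' side. On chromosome 5 at 115163894 to 115167560 (minus strand, 3667 bp) the scores were 892.83 and 137.82 in K512R-AS and 120.46 and 276.87 in WT-AS, so the pairs overlapped. The other 3 of the 6 widest lay on chromosome 3 at 149456257 to 149459505, on chromosome 22 at 21975804 to 21978323 and on chromosome 8 at 110355634 to 110358128. The last of these lay 194175 bp from any region with an untreated-named peak on its strand.

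A region of the reverse set lay within 10 kb on the same strand of 9 members (0.814%) and within 50 kb of 29 (2.62%). Of the other regions in all 4 arsenite-named lists, 3.29% had one within 10 kb and 10.3% within 50 kb. In those with a peak in 1 to 3 untreated-named lists the shares were 0.663% and 4.22%, so within 10 kb the members were not the lower set. In 3 cases the distance was under 1 kb, and there the region found in the untreated-named lists lay on the 3' side. On chromosome 2 the member at 121010381 to 121010556 scored 1738.97 and 2590.04 in K512R-AS and 1530.28 and 2375.61 in WT-AS, and 318 bp past it a region at 121010875 to 121011109 scored 1076.56 and 1640.69 in K512R and 1137.11 and 1636.5 in WT. On chromosome 1 the member at 28844745 to 28844820 lay 317 bp before a region at 28845138 to 28845399, and on chromosome 8 the member at 144640056 to 144640191 lay 285 bp before a region at 144640477 to 144640621. The chromosome 2 case had high scores on both sides, so that neighbouring stretches of 1 strand were each found in all lists of one set and none of the other. Further cases, at 3480 bp and 3756 bp, were on chromosome 18 at 3455861 and on chromosome 6 at 153304369.

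Of the members, 559 (50.5%) had a region with a peak in some untreated-named list within 10 kb on their strand, and 223 (20.2%) had none within 50 kb. Of the other regions in all 4 arsenite-named lists, 71.4% had such a neighbour within 10 kb and 8.64% had none within 50 kb. The median distance was 9686.5 bp for members and 4045 bp for the other regions. Among those with a peak in 1 to 3 untreated-named lists it was 4769 bp. Of these, 66.3% had such a neighbour within 10 kb and 13.3% had none within 50 kb. Members were chosen for having no peak in the untreated-named lists, so these distances are tied to that choice and are a description. The peak numbers in the authors' peak names have gaps, which bear on what the absence of a peak means. On all 24 chromosomes of every list the numbers rose with position, so a gap between neighbouring peaks shows that numbered peaks between them are not among those used here. Where a member had no peak, no number was skipped between the flanking peaks in 17.3% of members in K512R-1, 20.7% in K512R-2, 19.7% in WT-1 and 21.6% in WT-2. Over all neighbouring peaks of these lists it was 58.1% to 59.8%, and the lengths of the intervals were not compared. In 673 members (60.8%) none of the 4 untreated-named lists was free of a skipped number at the place. In 66 members (5.97%) no number was skipped in any of the 4 untreated-named lists, so no numbered peak is missing there. They had a median width of 163.5 bp and a median mean percentile of 48.5, against 154.5 bp and 43.0 over all members. In the other members an unlisted peak at the place cannot be told apart from no peak.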

How the data were processed

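The labels' protocols state that RNA was immunoprecipitated with an anti-Myc antibody and that the libraries, from IP and from input, were depleted of rRNA. The submitters' processing notes name cutadapt 1.9.3, HISAT2 2.0.4 and the build hg19, with no order. The deposited lists give each peak a score from the authors' caller, whose peak names begin with MACS. No source used here gives its version, control library, threshold or way of assigning strand.

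The record's titles set the groups, and the members were chosen by the names of the lists. Peaks of all 8 lists were joined at an overlap of 1 bp on the same strand. Scores served to rank peaks within a list, with ties at their mean rank. Joining, the member rule and distances were checked on simulated peaks. The named regions are the 12 loci with the most members, the 10 best-scored by their poorer percentile, the 6 widest, the 5 nearest to the reverse set and the 3 with the greatest difference in each direction. Members, loci rules and named regions were chosen with earlier results of these data known, and density, sides, chromosomes, run widths and peak numbers were added after the lists were seen. Alternatives covered overlap, strand, score, list length, presence rule and replicates. Scripts ran in Python 3.11.15 with pandas 2.3.3, numpy 2.4.6, matplotlib 3.10.9 for drawing and scipy 1.17.1 for intervals.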

Additional observations from a re-analysis of the deposited data

How the results depend on the processing

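The depth of the samples is unknown, so these values rest on 8 lists, and the lists cannot show whether a missing peak was weaker or absent. No paired analysis was possible because no result here comes from a test. Between lists of the same number, the median difference in percentile of members was -4.89 for K512R-AS-1 minus WT-AS-1 and -3.79 for K512R-AS-2 minus WT-AS-2, against -0.053 and -0.91 in the other regions.

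The number of members stayed between 1022 and 1459 with a stricter overlap, strand ignored, score minimums, lists of equal length or a margin of 200 bp around the peaks of other lists. It was 1874 when 3 of 4 lists sufficed and 1690 when 1 other list was allowed, where the reverse set had 3241 and 2868. Without replicate 1 or 2, or without any 1 list, it ran from 1211 to 2241, with 2241 members without replicate 1 and 2117 without replicate 2, and the reverse set from 2028 to 3667. A rule over fewer lists admits more regions by construction. Score minimums changed which regions were members: at 50 and 100, 561 and 374 of the 1106 overlapped a member.

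The median mean percentile was 55.8 and 63.5 at these score minimums and 33.9 when 3 of 4 lists sufficed, and without a replicate or list it ran from 35.1 to 42.99. The median width was 156 bp with the stricter overlap and with 3 of 4 lists, 159 bp at a score of 100, 152 bp with equal lengths or 1 other list allowed, and 152 to 157.5 bp without a replicate or list.

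The share of members with a region of all 8 lists within 50 kb was 66.1% with strand ignored, 53.3% and 48.9% at scores of 50 and 100, 29.6% within 10 kb, and 56.3% to 62.1% without a replicate or list. The share in loci of 2 or more was 52.9% with strand ignored, 53.3% with equal lengths, 54.6% with 3 of 4 lists, 53.0% with 1 other list allowed, 33.996% at 10 kb, and 49.1% to 52.7% without a replicate or list.

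Members on chromosome 19 made up 1.87% to 5.06% of its regions in all arsenite-named lists over the alternatives, with the highest share without replicate 2, and on chromosome 13 15.7% to 24.2%, with the highest at a score of 100. The share with the region of all 8 lists on the 5' side ran from 62.9% on the opposite strand, and 70.1% otherwise, to 77.7%.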
